A study of Arabidopsis thaliana with 15 samples.

Results

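Inflorescence meristems of Arabidopsis thaliana 35S::STM-GR plants that had received a mock spray were compared with those of unsprayed wild type across all genes, by RNA sequencing. The comparison used 5 of the 15 libraries of the series: 3 of mock-sprayed 35S::STM-GR and 2 of unsprayed wild type. The members were chosen by their genotype and treatment labels, with no measured value. All these plants were in the Ler background, and the labels give growth at 21 °C for 6 weeks. In 35S::STM-GR, SHOOT MERISTEMLESS (STM) is fused to the hormone-binding part of the glucocorticoid receptor (GR) and driven by the 35S promoter, which is active in most plant cells and not in the meristem alone. The mock spray was 0.02% Silwet L-77, a wetting agent, without dexamethasone (DEX), and tissue was taken 5 h later. The labels give the wild type of the comparison no spray. Genotype, spray and the handling that goes with it therefore differ together here, and their effects cannot be told apart. The labels do not say how many transgenic lines were used, or whether replicates came from separate plants, so p-values measure the spread between these samples. A further 5 libraries are given beside the comparison where they bear on it: 35S::STM-GR sprayed with 10 µM DEX in Silwet (n = 3) and wild type sprayed with the same DEX solution (n = 2). No mock-sprayed wild type was analysed here.

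STM is a KNOX class I homeodomain transcription factor that keeps the cells of the shoot meristem undifferentiated. A GR fusion protein is held in the cytoplasm by heat-shock chaperones until a steroid such as DEX is given, so mock-sprayed plants carry the fusion in its uninduced state. Several of the genes described below belong to mitochondrial retrograde signalling. When mitochondria are disturbed, membrane-bound NAC transcription factors are set free and enter the nucleus. There they switch on genes carrying the mitochondrial dysfunction motif in their promoters. A widely used marker of this signalling is AOX1A, an alternative oxidase that passes electrons to oxygen without pumping protons.

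Among the genes that rose at least 2-fold in mock-sprayed 35S::STM-GR, 24 of the 120 promoters searched held that motif. In the others, AOX1A among them, the 250 bases searched did not hold the motif, and bases farther upstream were not searched. Sequences are shown for some of the genes that held it. The motif was searched as CTTG followed after 5 unspecified bases by CAAG or CACG, on both strands, in the 250 bases before each annotated gene start (RefSeq, TAIR10.1 assembly of Col-0; the counts used TAIR10, and the plants were Ler). In the windows below, written 5′ to 3′ along the gene's own strand, the motif is in capitals. HSP23.6-MITO (AT4G25200) encodes a small heat-shock protein of mitochondria, AT5G51440 a related HSP20-like chaperone, AT2G21640 a small mitochondrial protein raised by oxidative stress, and CYP81D8 (AT4G37370) a cytochrome P450. The windows lie at chr4:12916676-12916925 on the plus strand, chr5:20890913-20891162 on the plus strand, chr2:9254128-9254377 on the plus strand and chr4:17571744-17571993 on the minus strand, in the order printed.
HSP23.6-MITO: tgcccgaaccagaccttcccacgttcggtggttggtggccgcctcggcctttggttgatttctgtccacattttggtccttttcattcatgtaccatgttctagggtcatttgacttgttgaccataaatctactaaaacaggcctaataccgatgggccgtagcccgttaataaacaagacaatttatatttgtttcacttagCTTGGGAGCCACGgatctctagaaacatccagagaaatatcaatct
AT5G51440: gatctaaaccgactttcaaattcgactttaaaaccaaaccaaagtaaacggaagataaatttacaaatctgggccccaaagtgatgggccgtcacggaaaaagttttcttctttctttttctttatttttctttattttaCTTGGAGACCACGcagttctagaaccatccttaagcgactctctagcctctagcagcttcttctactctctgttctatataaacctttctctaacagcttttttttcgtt
AT2G21640: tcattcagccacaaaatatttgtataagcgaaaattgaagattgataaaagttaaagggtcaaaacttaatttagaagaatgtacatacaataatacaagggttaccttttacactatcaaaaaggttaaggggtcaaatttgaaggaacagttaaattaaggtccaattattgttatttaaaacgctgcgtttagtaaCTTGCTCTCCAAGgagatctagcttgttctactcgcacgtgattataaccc
CYP81D8: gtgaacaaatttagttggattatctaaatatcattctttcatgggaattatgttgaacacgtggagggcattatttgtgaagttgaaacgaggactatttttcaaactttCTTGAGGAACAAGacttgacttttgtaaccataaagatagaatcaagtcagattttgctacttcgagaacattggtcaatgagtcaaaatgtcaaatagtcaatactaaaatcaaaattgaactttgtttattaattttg

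The motif begins 46, 110, 51 and 140 bases before the gene start in these 4 windows. Among the other genes that rose at least 2-fold, the same motif is printed below with 5 bases on either side, for the genes with the largest rises that are described further on; AT4G12735, AT2G04050 and AT5G55150 each hold 2 copies.
AT4G12735: ttaagCTTGGCCGCCAAGttata
AT4G12735: aagtcCTTGAACTTCACGtacga
AT5G52930: aaagaCTTGGTGGGCACGgtgat
AT2G04050: tagaaCTTGATTCCCAAGtaatc
AT2G04050: acgaaCTTGGTCCCCAAGtatat
AT5G54450: aaaaaCTTGGCGGACAAGgcaat
AT5G55150: ggttcCTTGGATCCCAAGtttct
AT5G55150: tcaaaCTTGCTCCCCACGgttcc
From the top, these motifs stand at chr4:7494331-7494343 and chr4:7494403-7494415 on the minus strand, chr5:21470243-21470255 on the plus strand, chr2:1339671-1339683 and chr2:1339612-1339624 on the minus strand, chr5:22109484-22109496 on the minus strand, and chr5:22383468-22383480 and chr5:22383485-22383497 on the minus strand.

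Of the 120 windows of genes that rose at least 2-fold, 24 held the motif (20%), against 228 of 21594 windows of all genes tested (1.06%). Genes that rose by less held it in 4 of 85 windows (4.71%), and genes that fell in 1 of 161 windows (0.621%). The 24 genes carried 27 sites, which began 25 to 220 bases before the gene start with a median of 90 bases, and 23 of the sites lay within 150 bases. Other motifs differed less. The heat shock element core was searched only as GAA followed after 2 bases by TTC, and the order TTC then GAA was not counted. This form was held by 15% of the windows of genes that rose at least 2-fold, against 9.4% of all windows. W-boxes, the sites of WRKY factors, were searched as TTGACC or TTGACT and stood in 39.2% against 27.8%. The as-1 core TGACG stood in 29.2% against 19.3%, and it overlaps TTGAC-type sites where TTGACG occurs. The KNOX site core TGACAG stood in 4.17% of the windows of genes that rose at least 2-fold, in 8.07% of those of genes that fell and in 5.76% of all. The evening element, searched as AAATATC with a T after it, stood in 10.6% of the windows of genes that fell, against 4.96% of all. The rapid stress response element CGCGTT stood in 5.83% and 6.21% of the windows of genes that rose at least 2-fold and that fell, against 2.7% of all. These shares are descriptions of letters in the windows and carry no test.

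**Figure D1:**
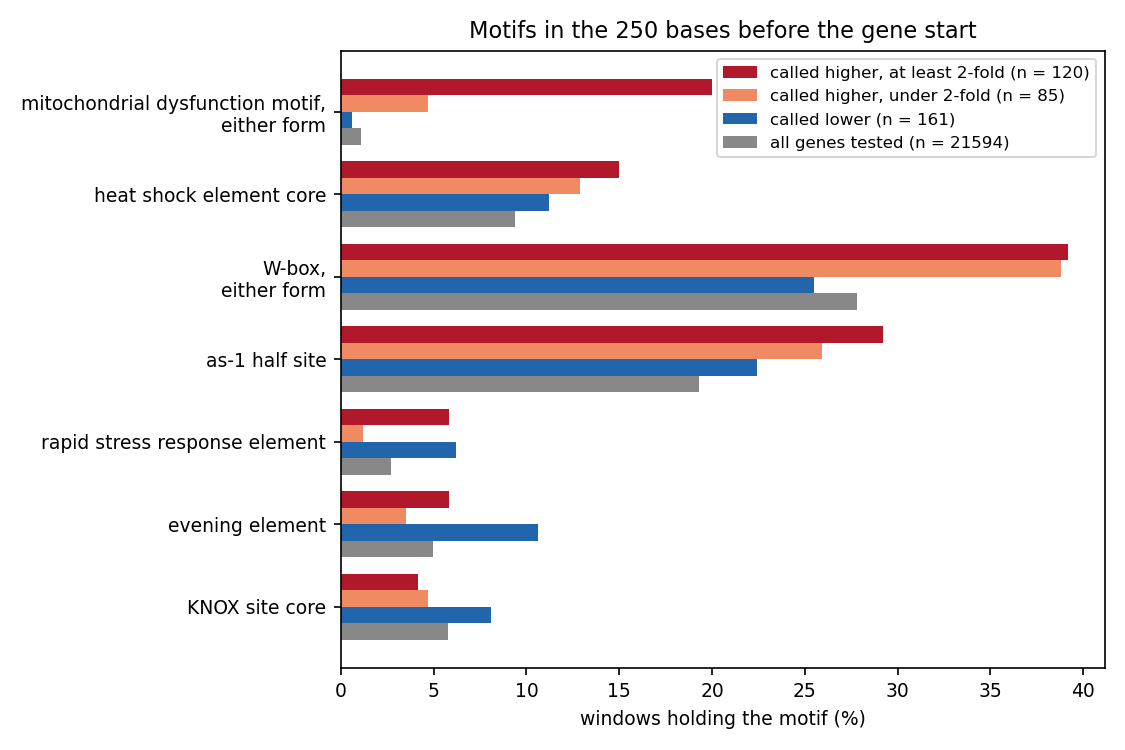
Share of promoter windows (x axis, percent) that hold each motif (y axis) among genes called higher at least 2-fold, called higher by less, called lower, and all genes tested in mock-sprayed 35S::STM-GR against unsprayed wild type. The mitochondrial dysfunction motif stands at 20% in the first group and 1.06% in all genes, and no other motif has as large a ratio.

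Libraries of the comparison held 21297738 to 25706099 gene counts, and 21716 of 28775 counted genes passed the filter on low counts. The unsprayed wild-type libraries stood apart from each other more than the other replicate pairs of the comparison: their counts differed by a chi-square of 14.8 per gene, while pairs of mock libraries differed by 3.23 to 7.58 and the DEX-sprayed wild-type pair by 3.88. On the first principal component of all libraries the mock libraries lay at 29.6 to 31.8, the DEX-sprayed wild type at 28.5 and 30.2, and the unsprayed wild type at 14.1 (replicate 1) and -5.58 (replicate 2). Mock replicate 2 was the highest mock library for 174 of the 206 genes called higher (84.5%, against 37.3% of all genes tested), and wild-type replicate 2 was the highest wild-type library for 126 of the 161 genes called lower (78.3%, against 51.5%). Leaving out a library moved the counts of calls accordingly, as given beside them. Of 8 genes listed as inflorescence meristem markers, 7 passed the filter on low counts, and CLV3 did not. CLV1, a receptor kinase of the stem cell niche, averaged 52.1 CPM in mock-sprayed 35S::STM-GR and 49.5 CPM in wild type, and WUS 30.8 and 34.4 CPM. AP1, on the same list but a floral identity gene, averaged 189 and 203 CPM.

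In mock-sprayed 35S::STM-GR, 206 genes were higher (0.949% of the genes tested) and 161 were lower (0.741%) than in unsprayed wild type, at an adjusted p under 0.05 by edgeR's quasi-likelihood test. Among them, 121 were higher (0.557%) and 35 lower (0.161%) by at least 2-fold. At an unadjusted p under 0.05 there were 3123 genes. Without wild-type replicate 2 the calls were 85 higher and 22 lower, without wild-type replicate 1 they were 310 and 314, without mock replicate 2 they were 113 and 42, without mock replicate 1 the lower calls were 94, and without mock replicate 3 they were 79. A fit of the 5 libraries alone, with no spread shared with the other groups, made 75 higher and 44 lower calls. Of the calls, 55 higher and 12 lower ones were kept in each of 13 other settings.

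**Figure D2:**
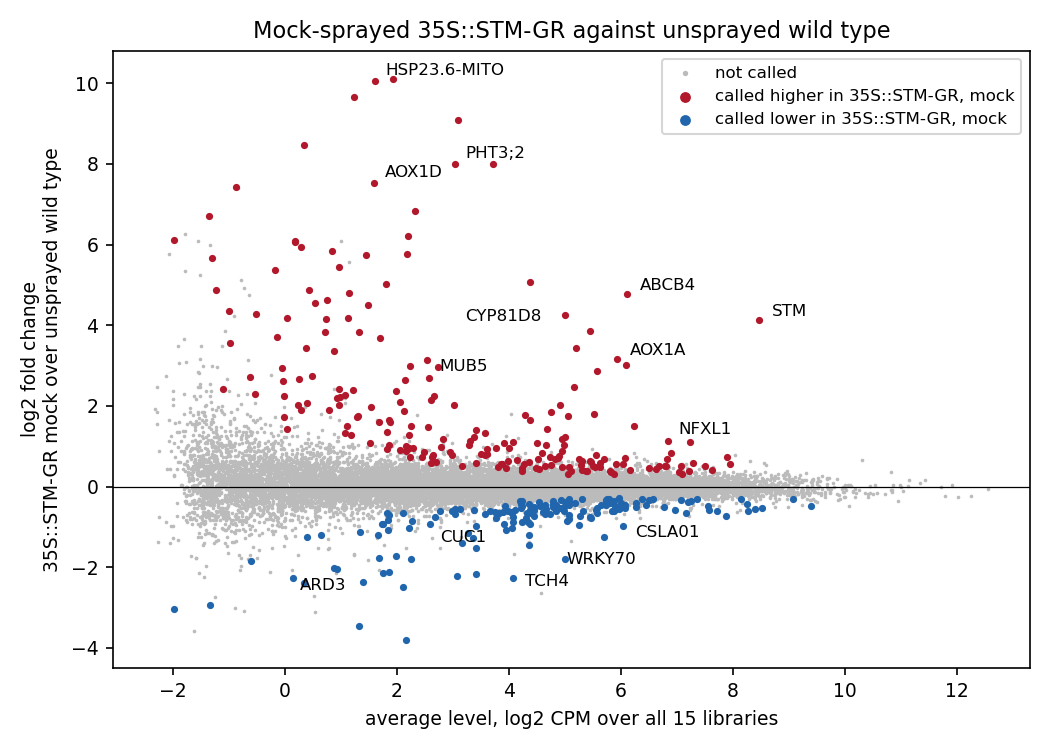
Log2 fold change of mock-sprayed 35S::STM-GR over unsprayed wild type (y axis) against the average log2 CPM over all 15 libraries (x axis), 1 point per gene tested. Red points are the 206 genes called higher and blue points the 161 called lower; STM stands at 4.12, and several chaperone and oxidase genes stand above it at lower levels.

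STM counts include reads from the transgene, which carries the same coding sequence. They were 814, 822 and 805 CPM (TMM-scaled counts relative to library size) in mock-sprayed 35S::STM-GR, against 46.2 and 47.4 CPM in unsprayed wild type. All 3 mock libraries stood far above both wild-type libraries, with a log2 fold change of 4.12 ± 0.09 (SE; edgeR adjusted p = 1.90e-12), and STM reached 779, 873 and 815 CPM with DEX in the same line and 53.4 and 49.6 CPM in DEX-sprayed wild type. The next genes along the chromosome showed no such difference: AT1G62350, 2 loci before STM, was at 1.65, 1.64 and 1.74 CPM against 1.80 and 2.19 CPM, and AT1G62370, the following locus, at 3.43, 3.0 and 3.85 CPM against 2.79 and 2.77 CPM (adjusted p = 0.600 and 0.468 by edgeR).

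The other KNOX class I genes were not called in the edgeR fit. KNAT1, which keeps meristem and stem cells proliferating alongside STM, was at 40.9, 43.8 and 37.7 CPM in mock-sprayed 35S::STM-GR, against 33.7 and 37.5 CPM in wild type (log2 fold change 0.20 ± 0.14, SE). KNAT2 was at 12.8, 14.0 and 11.7 CPM, against 11.1 and 13.5 CPM, and these ranges overlapped (0.06 ± 0.12). KNAT6, a boundary gene, was at 22.2, 25.1 and 19.6 CPM, against 15.6 and 17.2 CPM, with no overlap (0.44 ± 0.12; edgeR adjusted p = 0.0850). DESeq2 called KNAT6 higher (adjusted p = 0.0393, with a range of 0.0196 to 0.343 over the 13 other settings). Non-overlap by itself was common: in 18.0% of all genes tested each mock library lay above both wild-type libraries, and in 19.1% each lay below.

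Short lists of genes that respond to DEX in 35S::STM-GR stayed near the wild-type level as groups after mock spray. They do not stand for all such genes, and calls shared with the DEX comparison are given further on. These lists were picked on DEX libraries of this series, so their behaviour with DEX is no independent evidence. Of 13 genes that DEX raised, 0 were higher and 1 was lower in mock-sprayed 35S::STM-GR (0.949% and 0.741% of all genes tested), with a median log2 fold change of 0.11. Of 12 that DEX lowered, 0 were higher and 1 was lower, with a median of 0.01. The one lower gene of the raised list was CUC1, an organ boundary transcription factor, at 3.43, 3.94 and 3.35 CPM with mock spray, against 4.96 and 6.32 CPM in wild type. Its log2 fold change was -0.66 ± 0.14 (SE; edgeR adjusted p = 0.0303), while with DEX it reached 46.3, 52.1 and 51.9 CPM, against 4.33 and 4.01 CPM in DEX-sprayed wild type. The CUC1 call was lost in 6 of the 13 other settings, among them leaving out any 1 mock library or wild-type replicate 2. BOP2, another boundary gene, was at 24, 27.5 and 22.9 CPM with mock spray, against 19.2 and 19.0 CPM (0.36 ± 0.11, adjusted p = 0.118), and KAN1, which sets organ polarity, at 22.2, 23.0 and 20.9 CPM against 19.2 and 22.1 CPM. In the lowered list the gene that moved was CSLA01, a cellulose synthase-like gene, at 72.6, 52.4 and 78.4 CPM with mock spray, against 121 and 148 CPM in wild type. Its log2 fold change was -0.99 ± 0.21 (SE; adjusted p = 0.0252 by edgeR), and it stood at 16.5, 19.2 and 22.2 CPM with DEX in 35S::STM-GR. The CSLA01 call was lost in 4 of the other settings, without mock replicate 1, mock replicate 2 or wild-type replicate 2 and in the fit of the 5 libraries alone. The cytokinin oxidase CKX3 was at 16.6, 18.5 and 17 CPM, against 21.1 and 20.6 CPM, and was not called.

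**Figure D3:**
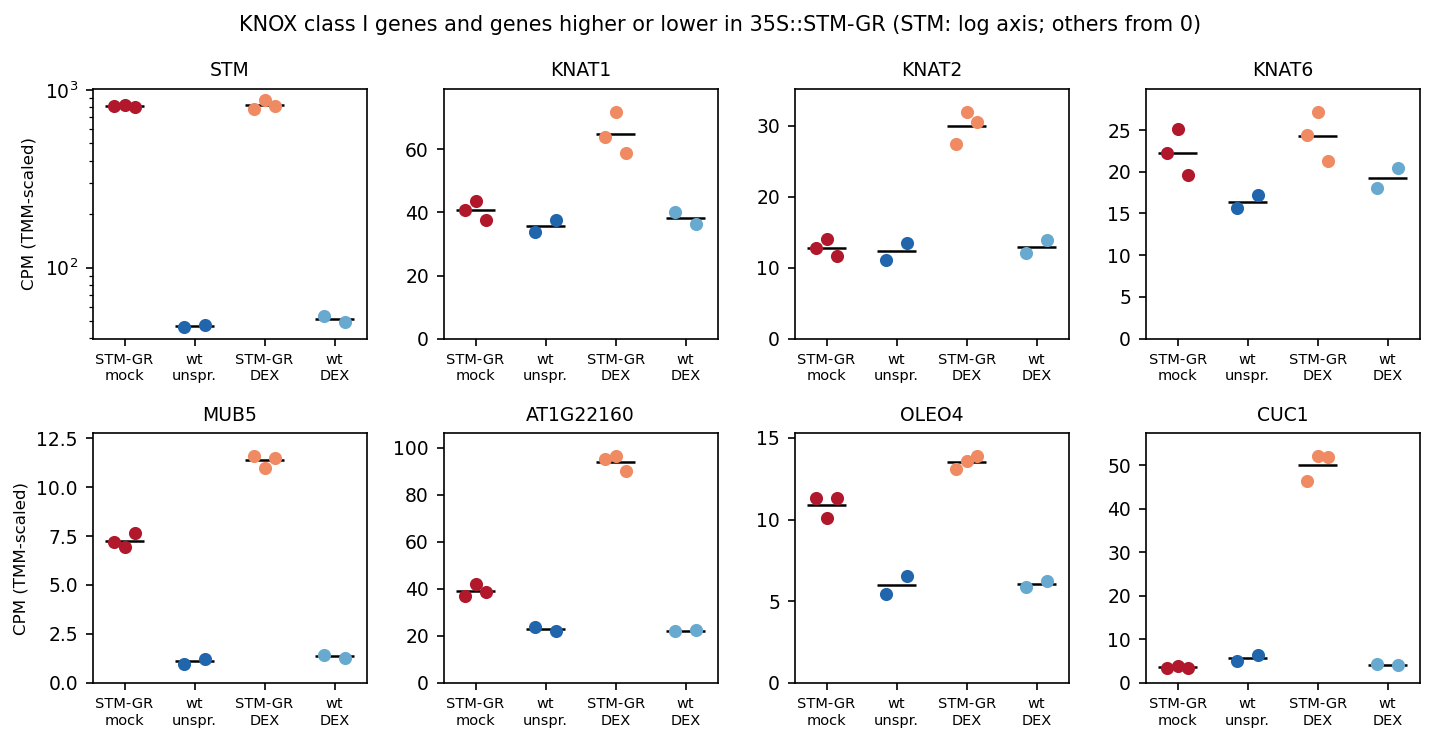
CPM of each library (y axis; log axis for STM, others from 0) for the KNOX class I genes and 4 genes named in the text, in 35S::STM-GR with mock spray, unsprayed wild type, 35S::STM-GR with DEX and DEX-sprayed wild type; points are libraries and lines are group means. STM is at 779 to 873 CPM in all 6 35S::STM-GR libraries, while CUC1 lies at 3.35 to 3.94 CPM with mock spray and reaches 52.1 CPM with DEX.

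Mitochondrial stress genes had the highest share of rises among the gene lists examined. The lists were chosen with earlier results of these data known, so this rank is no independent evidence. Of 16 genes on the list, all of which were tested, 9 were higher and 1 was lower in mock-sprayed 35S::STM-GR (0.949% and 0.741% of all genes tested). The list's median log2 fold change was 2.2 (0.00 over all genes tested). AOX1A was at 96.8, 128 and 77.7 CPM, against 11.5 and 11.2 CPM in unsprayed wild type. Every mock library stood several-fold above both wild-type libraries, and the log2 fold change was 3.15 ± 0.18 (SE; edgeR adjusted p = 2.36e-07). Its close relative AOX1D, another alternative oxidase, was at 2.01, 9.48 and 3.02 CPM, against 0.0410 and 0 CPM. A ratio of 224 was obtained for AOX1D (95% exact interval 39.9 to 8861, covering counting error only), and mock replicate 2 was the highest library. Its call was lost with limma-voom weights and in the fit of the 5 libraries alone.

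The chaperones among them were almost silent in unsprayed wild type. HSP23.6-MITO was at 6.54, 7.0 and 3.6 CPM in mock-sprayed 35S::STM-GR and had 0 counts in both wild-type libraries, which makes it at least 91.9-fold higher (floor of 3 counts over the wild-type group; adjusted p = 6.93e-06 by edgeR). AT5G51440 was at 41.0, 50.9 and 29.1 CPM, against 1.27 and 1.12 CPM (log2 fold change 5.07 ± 0.28, SE). Both have the motif printed above. AT2G21640 was at 54.3, 78.6 and 47.4 CPM, against 6.11 and 4.92 CPM (3.44 ± 0.23), and CYP81D8 at 39.4, 69.0 and 35.5 CPM, against 2.50 and 2.48 CPM (4.26 ± 0.28). UGT74E2, a glucosyltransferase of the auxin indole-butyric acid, was at 70.4, 105 and 62.3 CPM, against 11.6 and 10.2 CPM (2.86 ± 0.19). NDB4, an alternative NAD(P)H dehydrogenase of mitochondria, was at 6.5, 10.5 and 6.79 CPM, against 1.19 and 1.32 CPM (2.65 ± 0.28). NAC13 (ANAC013), one of the membrane-bound NAC factors that bind the motif, was at 41.5, 57.9 and 37.1 CPM, against 12.5 and 14.5 CPM (1.75 ± 0.16). In all of these the mock and wild-type libraries did not overlap, and mock replicate 2 was the highest library.

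Of the remaining members 1 was lower and 6 were not called. DIC1, a dicarboxylate carrier of the inner membrane, was lower at 30.7, 27.0 and 31.3 CPM, against 38.0 and 65.6 CPM. Its call was lost in 4 of the 13 other settings, including that without wild-type replicate 2. NAC017, the NAC factor that acts upstream of AOX1A, was at 78.9, 77.8 and 70.6 CPM, against 69.3 and 73.9 CPM (log2 fold change 0.08 ± 0.07, SE), and its window holds the motif as well. OM66, an outer membrane ATPase, was at 14.3, 23.0 and 11.8 CPM, against 5.90 and 13.1 CPM, and the ranges overlapped. NDA2, TIM17-1, AT5G09570 and AT5G64400 were not called either, with log2 fold changes of 0.08 to 0.67. Of all 16 members, 15 had a positive log2 fold change and 13 had an unadjusted p under 0.05. In all, 5 of the 16 windows (31.2%) held the motif, while those of the called genes AOX1A, AOX1D, NDB4, NAC13, UGT74E2 and DIC1 did not. W-boxes stood in 12 of the 16 windows (75%, against 27.8% over all genes tested).

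Genes of this list were also high in DEX-sprayed wild type, which lacks the transgene. That comparison shares the unsprayed wild-type libraries with the present one, so the values are given side by side. AOX1A was at 72.1 and 83.5 CPM in DEX-sprayed wild type, AT5G51440 at 22.8 and 32.3 CPM, CYP81D8 at 42.8 and 41.6 CPM, and HSP23.6-MITO at 3.97 and 4.49 CPM. Against unsprayed wild type, DEX-sprayed wild type had 9 of the 16 mitochondrial stress genes higher and 0 lower (0.484% and 0.134% of all genes tested), with a median log2 fold change of 1.57. Against DEX-sprayed wild type, mock-sprayed 35S::STM-GR had 0 of the 16 higher and 0 lower (0.0184% and 0.0138% of all genes), with a median of 0.20. In the libraries that shared no sample with these, DEX-sprayed 35S::STM-GR against DEX-sprayed wild type, 4 of the 16 were higher and 0 lower (4.92% and 5.92% of all genes), with a median of 0.43, AOX1A among them at 119, 137 and 125 CPM against 72.1 and 83.5 CPM.

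**Figure D4:**
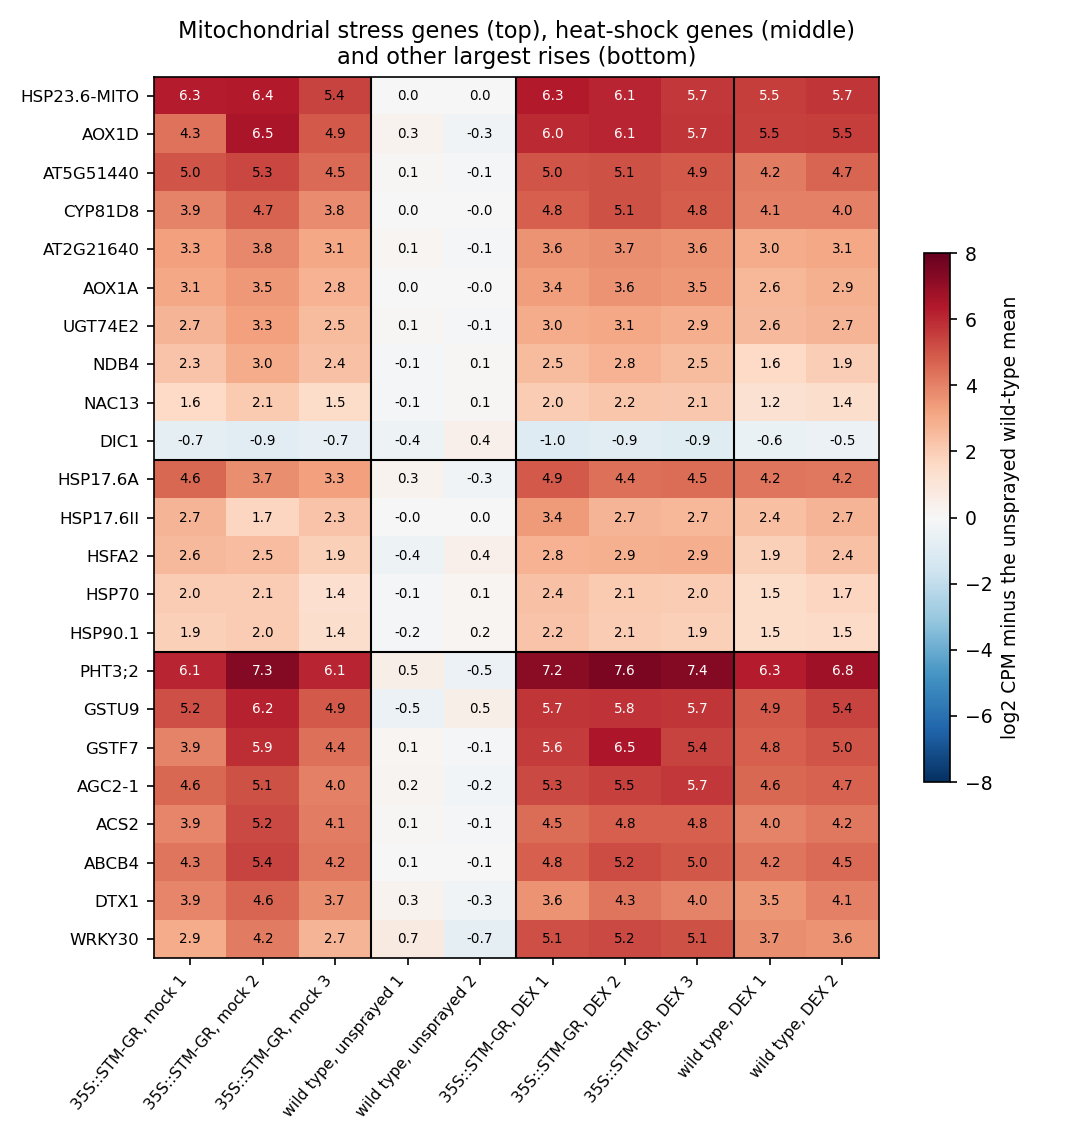
Log2 CPM minus the mean of the unsprayed wild type (colour and number in each cell) for mitochondrial stress genes (top), heat-shock genes (middle) and other large rises (bottom), in 10 libraries given on the x axis. Mock-sprayed 35S::STM-GR, DEX-sprayed 35S::STM-GR and DEX-sprayed wild type are all red, with the exception of DIC1, and the unsprayed wild type is near 0.

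Heat-shock genes rose in part. Of 24 genes listed, 19 were tested, with a median log2 fold change of 0.35. In mock-sprayed 35S::STM-GR 5 were higher and 0 lower (0.949% and 0.741% of all genes tested). HSFA2, the heat-shock factor that sustains the response, was at 6.22, 5.73 and 3.81 CPM, against 0.697 and 1.32 CPM in wild type (2.37 ± 0.29, SE; edgeR adjusted p = 3.85e-04). Its window at chr2:11135374-11135623 on the plus strand is shown with 2 copies of the heat shock element core, in capitals, which is the site such factors bind. HSFA2 alone among the 5 called genes had this form of the core in its window, and the order TTC then GAA was not searched. The core stood in 5 of all 19 windows of the list (26.3%, against 9.4% over all genes tested).
HSFA2: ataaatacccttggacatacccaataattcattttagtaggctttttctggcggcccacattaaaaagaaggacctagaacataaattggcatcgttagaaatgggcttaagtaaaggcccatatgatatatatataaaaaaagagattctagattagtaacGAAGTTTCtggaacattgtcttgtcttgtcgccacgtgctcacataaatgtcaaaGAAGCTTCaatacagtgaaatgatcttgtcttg

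HSP90.1, a cytosolic chaperone, was at 29.5, 32.1 and 21.1 CPM, against 7.05 and 9.01 CPM (1.78 ± 0.18), and HSP70 (AT3G12580) at 43.9, 45.9 and 28 CPM, against 9.92 and 12.1 CPM (1.84 ± 0.20). The small heat-shock protein HSP17.6A was at 2.48, 1.31 and 0.952 CPM, against 0.0410 and 0 CPM (ratio 78.2, 95% exact interval 13.8 to 3116), and its neighbour HSP17.6II at 0.749, 0.329 and 0.538 CPM, against 0.0410 and 0.0413 CPM (ratio 13.4, interval 3.46 to 114). These small heat-shock genes are similar in sequence and adjacent, so reads may be divided between them, and the HSP17.6II call was lost in 6 of the 13 other settings. HSP101, a disaggregase needed for heat tolerance, was at 25.8, 22.5 and 20.6 CPM, against 15.8 and 18.6 CPM, and was not called (adjusted p = 0.200 by edgeR). DREB2A was at 8.15, 8.36 and 7.16 CPM against 6.64 and 8.35 CPM, and MBF1C at 14.7, 14.6 and 15.4 CPM against 11.6 and 15.2 CPM; both regulate heat responses and neither was called. In DEX-sprayed wild type HSFA2 stood at 3.79 and 5.33 CPM and HSP90.1 at 22.3 and 23.3 CPM.

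Detoxification and transport genes were among the largest rises. PHT3;2, a phosphate carrier of mitochondria, was at 8.23, 19.4 and 8.20 CPM in mock-sprayed 35S::STM-GR, against 0.0820 and 0 CPM in wild type (ratio 282, 95% exact interval 77.7 to 2329). ABCB4, an auxin transporter of the plasma membrane, was at 89.7, 194 and 83.5 CPM, against 4.63 and 4.30 CPM (log2 fold change 4.77 ± 0.36, SE; adjusted p = 3.92e-06 by edgeR). SOT12, a sulphotransferase chosen after its values were seen, was at 94.5, 148 and 78.4 CPM, against 15.5 and 11 CPM (3.02 ± 0.25). In each of these mock replicate 2 was the highest library and the groups did not overlap. Of 23 tau-class glutathione transferases listed, 20 were tested, with a median log2 fold change of 0.06. Among them 2 were higher and 1 lower (0.949% and 0.741% of all genes tested). GSTU9 was at 6.34, 12.7 and 5.22 CPM, against 0.0410 and 0.165 CPM (ratio 76.6, interval 32.6 to 237), and GSTU24 at 5.99, 13.6 and 5.63 CPM, against 0.738 and 1.36 CPM. GSTU27 was lower, at 9.89, 8.87 and 9.69 CPM against 14.1 and 14.8 CPM, a call lost without mock replicate 2 or wild-type replicate 2. The phi-class GSTF7 was at 2.80, 11.2 and 3.89 CPM, against 0.123 and 0.0826 CPM (ratio 55.4, interval 24 to 172). GSTF7 is nearly identical to its neighbour GSTF6, at 9.77, 32.8 and 12.5 CPM against 4.26 and 6.24 CPM (not called), so the division between them is uncertain. The GSTF7 call was lost in 3 of the 13 other settings, including that without wild-type replicate 2. The efflux carrier DTX1 was at 4.45, 7.51 and 3.93 CPM, against 0.287 and 0.165 CPM (ratio 23.0, interval 12.7 to 46.4), and its neighbour AT2G04050, of the same MATE family and chosen after its values were seen, at 17.3, 48.4 and 18 CPM, against 0.164 and 0.0413 CPM (ratio 260.0, interval 111 to 802). Reads may also be shared between these copies.

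Single genes of signalling were also higher. ACS2, an enzyme that makes the ethylene precursor, was at 3.90, 10.2 and 4.51 CPM in mock-sprayed 35S::STM-GR, against 0.205 and 0.165 CPM in wild type (ratio 32.4, 95% exact interval 16.9 to 71.3). It was the 1 gene called higher of 12 tested ethylene genes, with 0 lower (0.949% and 0.741% of all genes tested) and a median log2 fold change of 0.23. ACS6, a related enzyme, was at 15.4, 16.0 and 12.8 CPM against 16 and 60.5 CPM, and the wild-type libraries lay far apart. The protein kinase AGC2-1 was at 3.43, 5.02 and 2.28 CPM, against 0.0820 and 0.0413 CPM (ratio 56.9, interval 19.3 to 278), and WRKY30 at 1.5, 3.61 and 1.28 CPM, against 0.246 and 0.0413 CPM (ratio 14.3, interval 6.77 to 36.2). The WRKY30 call was lost in 3 of the 13 other settings, including that without wild-type replicate 2. Chosen after their values were seen, ERF71, a factor that responds to low oxygen, was at 2.13, 3.90 and 2.07 CPM, against 0.0410 and 0.0413 CPM (ratio 64.1, interval 17.5 to 534), and the non-symbiotic haemoglobin HB1 at 8.51, 17.9 and 7.33 CPM, against 1.43 and 1.12 CPM. CRF6, a cytokinin response factor, was at 29.0, 42.8 and 27.4 CPM, against 12 and 12.6 CPM, and NFXL1, a zinc finger regulator, at 142, 192 and 127 CPM, against 70.0 and 69.2 CPM. In DEX-sprayed wild type ACS2 stood at 4.20 and 4.97 CPM, ABCB4 at 86.2 and 103 CPM and PHT3;2 at 9.39 and 13.2 CPM.

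Genes annotated with the domain of unknown function DUF295 formed a group that was chosen after its values were seen. Of 37 tested, 7 were higher and 0 lower in mock-sprayed 35S::STM-GR (0.949% and 0.741% of all genes tested), with a median log2 fold change of 0.22. Of the 7, 5 hold the mitochondrial dysfunction motif. AT5G52930 was at 4.89, 4.74 and 3.52 CPM and had 0 counts in both wild-type libraries, at least 70.9-fold higher. AT5G54450 was at 2.92, 5.16 and 2.77 CPM, against 0.0820 and 0.165 CPM (ratio 28.7, 95% exact interval 13.0 to 79.0), and AT5G55150 at 2.36, 3.61 and 2.03 CPM, against 0.164 and 0.0413 CPM (ratio 25.5, interval 10.7 to 79.5). The other 4 were AT5G52940, AT4G25930, AT5G54550 and AT5G54560, of which AT5G54560 lost its call in 8 of the 13 other settings. Members of the group resemble each other, and reads may be shared among them. AT4G12735 and AT2G41730, also chosen after their values were seen and of unknown function, rose as steeply: AT4G12735 was at 4.29, 9.20 and 4.51 CPM with 0 counts in wild type (at least 94.7-fold higher), and AT2G41730 at 11.1, 21.4 and 10.1 CPM, against 0.0410 and 0 CPM.

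Some touch and rapid-stress genes were lower in mock-sprayed 35S::STM-GR, and their number depended on the wild-type libraries. Of 19 tested, 0 were higher and 4 were lower (0.949% and 0.741% of all genes tested), with a median log2 fold change of -0.79. Without wild-type replicate 1 there were 12 lower, and without wild-type replicate 2 TCH4 was lower and ZAT12 higher. TCH4, a cell wall enzyme raised by touch, was at 5.40, 7.75 and 6.29 CPM, against 24.1 and 37.9 CPM in wild type, with a log2 fold change of -2.27 ± 0.30 (SE; adjusted p = 8.29e-04 by edgeR). TCH2, a calmodulin-like protein, was at 13.0, 9.06 and 12.1 CPM, against 17.2 and 29.3 CPM (-1.02 ± 0.20), a call lost without mock replicate 2 or wild-type replicate 2. The ethylene response factors ERF5 and ERF6 were at 2.09, 1.5 and 1.66 CPM against 2.46 and 9.67 CPM, and at 1.1, 0.798 and 0.911 CPM against 1.56 and 6.28 CPM. Both calls rested on wild-type replicate 2, and they were lost in 8 of the 13 other settings. ZAT12, a zinc finger factor, was at 9.18, 11 and 8.82 CPM, against 3.61 and 17.3 CPM, so the mock libraries lay between the wild-type ones. WRKY40 showed the same order at 6.34, 9.20 and 4.72 CPM against 2.21 and 21.0 CPM, and neither was called.

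Among the 12 largest falls were further stress regulators. ERF104 was at 2.76, 4.93 and 3.02 CPM in mock-sprayed 35S::STM-GR, against 6.76 and 27 CPM in wild type, and CAF1a, a deadenylase that shortens mRNA tails, at 2.17, 2.16 and 1.95 CPM against 2.75 and 16 CPM. The ERF104 call was lost in 6 and the CAF1a call in 8 of the 13 other settings, for each gene including that without wild-type replicate 2. ARD3, an acireductone dioxygenase of methionine salvage, was at 0.867, 0.845 and 0.952 CPM, against 4.67 and 4.50 CPM (log2 fold change -2.36 ± 0.29, SE; edgeR adjusted p = 3.89e-04), where the wild-type libraries lay close together. The calmodulin-like AT2G41090, chosen after its values were seen, was at 10.6, 10.4 and 10.5 CPM, against 36.8 and 35.8 CPM (-1.79 ± 0.17).

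Defence genes were lower in part. Of 16 salicylate and immune genes listed, 14 were tested, with a median log2 fold change of -0.30. Among them 0 were higher and 2 lower (0.949% and 0.741% of all genes tested). The 2 were WRKY70, a transcription factor downstream of salicylate, at 27.8, 30.1 and 23.1 CPM against 47.9 and 81.2 CPM in wild type, and NIMIN1, an interactor of the salicylate receptor NPR1, at 1.97, 2.91 and 1.74 CPM against 3.48 and 5.79 CPM. The WRKY70 call was lost in 3 and the NIMIN1 call in 6 of the 13 other settings, for each gene including that without wild-type replicate 2. PR5, a pathogenesis-related protein, had the opposite sign, at 8.63, 9.58 and 8.40 CPM against 4.02 and 4.30 CPM, and was not called (adjusted p = 0.0767 by edgeR). WRKY54, a close relative of WRKY70, was at 2.13, 2.35 and 2.28 CPM, against 4.92 and 10.6 CPM (-1.79 ± 0.24). LURP1, a gene of downy mildew resistance, was at 1.5, 2.02 and 1.70 CPM, against 6.15 and 5.33 CPM, and DMR6, a salicylate hydroxylase, at 6.03, 6.62 and 4.88 CPM, against 12.3 and 13.4 CPM. The wall-associated kinase WAK2 was at 3.43, 5.07 and 4.02 CPM, against 9.75 and 10.4 CPM. In LURP1, DMR6 and WAK2 the wild-type libraries lay close together, and these calls were kept in all 13 other settings.

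The genes annotated with Toll/interleukin receptor (TIR) domains between AT1G72840 and AT1G72950 were chosen after their values were seen. Of 11 tested there, 4 were lower and 0 higher in mock-sprayed 35S::STM-GR (0.741% and 0.949% of all genes tested), with a median log2 fold change of -0.53. Over the whole genome, 5 of 87 tested genes annotated as Toll or TIR were lower, those 4 among them. TIR (AT1G72930) was at 11.4, 11.1 and 10.1 CPM, against 26.2 and 32.9 CPM (-1.45 ± 0.14; edgeR adjusted p = 6.40e-05), a call kept in all other settings. AT1G72910 was at 0.867, 0.939 and 0.745 CPM, against 2.42 and 21.3 CPM, AT1G72920 at 0.670, 0.469 and 0.538 CPM, against 2.17 and 10.5 CPM, and AT1G72940 at 1.89, 1.64 and 1.49 CPM, against 3.07 and 11.5 CPM. Those 3 calls were lost in 3, 2 and 4 of the 13 other settings, in that order, for each gene including that without wild-type replicate 2. Since these genes are similar neighbours, reads may be shared among them.

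**Figure D5:**
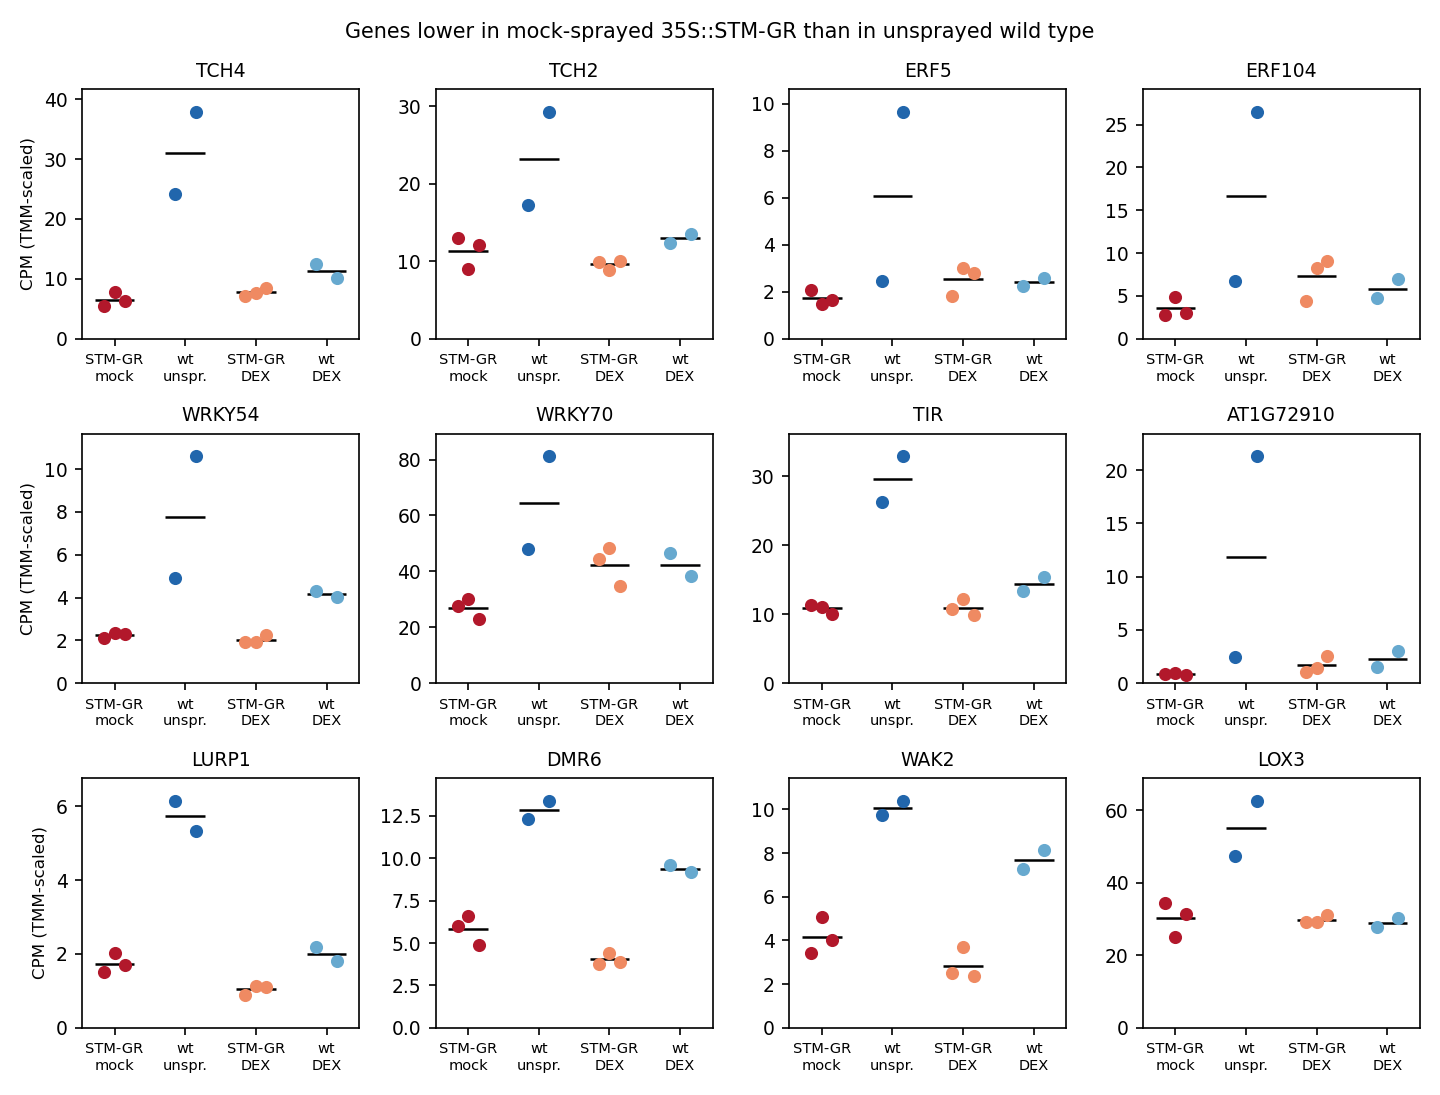
CPM of each library (y axis, from 0) for 12 genes called lower in mock-sprayed 35S::STM-GR than in unsprayed wild type, in the same 4 groups as above; points are libraries and lines are group means. The wild-type libraries lie far apart for ERF5, ERF104 and AT1G72910 and close together for LURP1, DMR6 and WAK2.

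Hormone and clock genes moved singly. Of 9 tested jasmonate synthesis genes, 0 were higher and 2 were lower in mock-sprayed 35S::STM-GR (0.949% and 0.741% of all genes tested), with a median log2 fold change of -0.19. LOX3, a lipoxygenase, was at 34.5, 25.1 and 31.3 CPM, against 47.4 and 62.7 CPM in wild type, and OPR3, a reductase of the same pathway, at 75.4, 63.1 and 66.8 CPM, against 96.0 and 92.2 CPM. Of 13 jasmonate response genes, 0 were called. Of 22 clock genes, 1 was higher and 1 was lower: RVE1, a morning-phased Myb factor, was at 27.1, 25.8 and 23.2 CPM against 15.8 and 8.39 CPM, and FKF1, a blue-light receptor that peaks late in the day, at 40.5, 41.8 and 39.1 CPM against 54.9 and 61.7 CPM. ARR9 was the 1 gene called of 8 type-A response regulators, at 21.9, 23.8 and 22.6 CPM against 16.6 and 14.6 CPM. The calls of LOX3, OPR3, RVE1, FKF1 and ARR9 were lost without wild-type replicate 2, and all of these but that of FKF1 were also lost without mock replicate 2. The gibberellin-degrading GA2OX2 was lower, at 21.4, 23.1 and 21.9 CPM against 35.6 and 31.0 CPM, as was the cold-regulated COR15B, at 157, 136 and 159.9 CPM against 201 and 252 CPM. The GA2OX2 call was lost without wild-type replicate 1, and the COR15B call without wild-type replicate 2 or mock replicate 2. MAM1, which elongates the chain of methionine-derived glucosinolates, was higher, at 19.7, 18.8 and 17.8 CPM against 10.3 and 11.2 CPM. Only GA2OX2 was called of 8 gibberellin oxidases tested, and only COR15B of 23 abscisic acid and water stress genes. MAM1 was the only call of 12 aliphatic glucosinolate genes. The median log2 fold changes of these lists were 0.10, -0.05 and 0.01. None of 15 sugar starvation genes was called, but all 15 had a positive log2 fold change, with a median of 0.49, and 6 were higher without wild-type replicate 1. None of 16 auxin response genes was called, while 3 were higher without wild-type replicate 1 and 2 with DESeq2. None of the genes tested for cytokinin turnover (15), anthocyanin (13), cuticle and wax (30), DNA methylation (12), alpha-expansins (11), the cell cycle (17) or floral volatiles and nectaries (6) was called in either direction, and each of these lists had at most 2 calls in any other setting.

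Meristem and flower genes stayed close to wild type as a group. Of 17 tested meristem and boundary genes, 0 were higher and 1, CUC1, was lower (0.949% and 0.741% of all genes tested), with a median log2 fold change of -0.05. Of 10 floral meristem identity and 13 floral organ identity genes, 0 were called, with medians of 0.16 and -0.07. LFY was at 6.11, 6.62 and 5.92 CPM in mock-sprayed 35S::STM-GR, against 5.49 and 5.45 CPM in wild type, and AP1 at 191, 186 and 189.9 CPM, against 193 and 213 CPM. The markers of other tissues gave 0 calls in each list. Photosynthetic markers summed to 28803 to 29762 CPM in mock-sprayed 35S::STM-GR, against 32894 to 33058 CPM in wild type, and 19 of the 20 had a negative log2 fold change. In bulk samples, fewer cells of a type and less RNA per cell cannot be told apart. The 3 pollen markers summed to 1066 to 1414 CPM, against 846 to 1326 CPM, the 15 tapetum markers to 1369 to 1711 CPM, against 1490 to 1503 CPM, the 9 carpel markers to 191 to 209.8 CPM, against 181 to 185 CPM, and the 9 stem vasculature markers to 403 to 459 CPM, against 405 to 421 CPM. The part of these tissues in the calls was not tested.

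Mock-sprayed 35S::STM-GR and DEX-sprayed wild type, which differ in the transgene and in DEX, differed at 7 genes: STM, MUB5, AT1G22160 and OLEO4 were higher and AT1G62305, FKF1 and PRR5 lower in mock-sprayed 35S::STM-GR. MUB5, a membrane-anchored ubiquitin-fold protein chosen after its values were seen, was at 7.21, 6.95 and 7.66 CPM, against 0.984 and 1.24 CPM in unsprayed wild type (log2 fold change 2.70 ± 0.25, SE; edgeR adjusted p = 3.07e-05) and 1.41 and 1.28 CPM in DEX-sprayed wild type. It was at 11.6, 11 and 11.5 CPM in 35S::STM-GR with DEX, so all 6 transgenic libraries stood above all 4 wild-type ones. MUB5 was also above wild type in libraries without 35S::STM-GR, at 3.93, 5.08 and 7.70 CPM in unsprayed ap1-1. The following locus, AT1G77880, was also higher at 1.46, 1.55 and 1.45 CPM against 0.246 and 0.455 CPM in unsprayed wild type, a call lost in 7 of the 13 other settings, while ARF17 and the other tested neighbours within 6 loci were not called. AT1G22160, of unknown function, was at 37.0, 41.9 and 38.7 CPM, against 23.9 and 21.9 CPM (0.77 ± 0.10), and reached 95.2, 96.5 and 90.3 CPM with DEX. OLEO4, an oleosin of oil bodies, was at 11.3, 10.1 and 11.3 CPM, against 5.45 and 6.57 CPM (0.86 ± 0.13), and DWF4, the rate-limiting hydroxylase of brassinosteroid synthesis, at 29.6, 29.5 and 25.4 CPM, against 14.6 and 16.9 CPM (0.84 ± 0.11).

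Calls were compared with those of DEX-sprayed 35S::STM-GR against DEX-sprayed wild type, which shares no library with the present comparison and sets the same genotypes against each other under 1 spray. Of the 206 genes called higher, 75 were also higher there (36.4%, and 7.02% of its 1069 higher calls), and of the 161 called lower, 82 were also lower (50.9%, and 6.38% of its 1286 lower calls). That comparison called 4.92% of all genes tested higher and 5.92% lower. Of the 75, 44 lay higher in all 6 transgenic libraries than in all 4 wild-type libraries. Of the 82, 66 lay lower in all 6. Such separation partly follows from the calls, which were made in the same libraries. Over all genes tested, with no call required, those patterns were found in 3.87% and 3.38%, so the shares are not like for like. The 44 included STM, MUB5, AT1G22160, OLEO4, DWF4, NDB4, NAC13, RVE1 and ERF71. Among the lower ones were CSLC04, a cellulose synthase-like gene, at 19.0, 19.0 and 19.9 CPM with mock spray against 28.7 and 31.9 CPM in unsprayed wild type, and GPRI1 (GLK1), a regulator of chloroplast genes, at 22.5, 20.2 and 22.1 CPM against 30.7 and 43.9 CPM, a call lost without wild-type replicate 2. CSLC04 stood at 12.5, 14.9 and 14.3 CPM with DEX in 35S::STM-GR, against 25.9 and 25.1 CPM in DEX-sprayed wild type. Another 5 genes were called in opposite directions in these comparisons.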

How the data were processed

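The authors deposited a table of read counts per gene for each library. The submitters' processing notes name TAIR10, TopHat2 2.0.6 and HTSeq 0.62, without saying what each did. The authors also deposited a table of normalized signal, in which each value is the count over the library's size factor. The setting for strand is not given in the sources used here, so overlapping, antisense and near-identical genes are uncertain. Entries naming no gene (5.50% to 5.83% of reads in the libraries compared) were left out. Depth was 18717248 to 26539358 gene counts over the 15 libraries, and intervals and floors cover counting error only.

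The main test was that of edgeR 4.0.16 (R 4.3.3), with a minimum count of 10 in filterByExpr, TMM scaling, 1 quasi-likelihood fit of all 15 libraries in 6 groups, and Benjamini-Hochberg adjustment over the 21716 genes tested. The biological coefficient of variation was 9.85%. The SE is the log2 fold change over the square root of F. The script was tested on simulated data. Alternatives used DESeq2 1.42.0, limma 3.58.1 and left-out libraries. With a wild-type group of 0 counts, a fold is a minimum that sets the group at 3 counts, and with 12 counts or fewer the ratio has a 95% exact interval.

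Groups came from the labels. Named genes were STM and the KNOX class I genes, the 12 largest rises and falls among called genes with a symbol, an average log2 CPM of at least 1 and no overlap, and, per list, up to 6 genes in order of adjusted p. Others were chosen after their values were seen. The result of 1 gene is not reported here. The lists and members were chosen with earlier results of these data known. Gene names, gene starts and sequences are RefSeq's for TAIR10.1, with 21594 promoter windows among the genes tested.

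Replicate numbers are shared by the groups, but libraries of mock and unsprayed wild type with the same number did not deviate together, and no pairing was used. For DEX-sprayed wild type the numbers in titles and descriptions differ, and those of the titles were used. A pairing by the numbers of the descriptions was not checked. The design text names the allele ap1-4 and the labels ap1-1, and the labels' name was used. The ap1 libraries entered the shared spread, the principal components and the average levels, and their MUB5 values are given above.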

Additional observations from a re-analysis of the deposited data

Results flagged for a closer look

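The difference between 35S::STM-GR and wild type ran in opposite directions, with a call in each, for 5 genes in mock-sprayed 35S::STM-GR against unsprayed wild type and in DEX-sprayed 35S::STM-GR against DEX-sprayed wild type. The second difference minus the first was tested as an interaction in the same edgeR fit, adjusted over all genes tested. Values are given for 4 of these genes.

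CUC1 had log2 fold changes of -0.66 with mock spray and 3.59 with DEX, and the difference was 4.25 ± 0.20 (SE; edgeR adjusted p = 4.58e-08). The receptor-like RLP38 was at 2.72, 2.58 and 2.15 CPM with mock spray against 4.43 and 5.74 CPM in unsprayed wild type, and at 4.75, 4.87 and 4.42 CPM with DEX against 3.06 and 3.13 CPM in DEX-sprayed wild type. Its log2 difference between the comparisons was 1.63 ± 0.25 (edgeR adjusted p = 0.00277). The chaperone gene Hsp70-2 was at 93.2, 78.4 and 78.4 CPM against 56.1 and 70.0 CPM, and at 53.1, 55.5 and 53.2 CPM with DEX against 78.5 and 74.7 CPM (difference -0.91 ± 0.13). AT1G21050 was at 10.1, 10.1 and 9.73 CPM against 7.46 and 6.69 CPM, and at 7.59, 6.66 and 6.78 CPM with DEX against 10.4 and 9.75 CPM (difference -1.02 ± 0.16). In the mock comparison the calls were lost in 6 of 13 other settings for CUC1, in 2 for RLP38, and in 7 each for Hsp70-2 and AT1G21050. The mock comparison differs in spray as well as genotype, and the part of each cannot be told apart.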

How the results depend on the processing

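The counts of calls depended most on the libraries. Mock-sprayed 35S::STM-GR against unsprayed wild type had 206 higher and 161 lower genes, 336 and 302 with DESeq2, 75 and 44 in a fit of the 5 libraries alone, and 85 to 310 higher and 22 to 314 lower with 1 library left out. DEX-sprayed 35S::STM-GR against DEX-sprayed wild type had 1069 and 1286, 2380 and 2691 with limma-voom weights, 2192 and 2394 in a fit of its own libraries, and 298 to 765 and 416 to 966 with 1 library left out. In fits of fewer libraries the spread rests on fewer samples. With its own libraries alone, the mock comparison had fewer calls and the DEX comparison had more. The cause of these changes was not tested. With a wild-type group of 1 library, that library is assumed to vary like the other groups. KNAT2, not called, changed sign without mock replicate 2 (-0.0035) and without wild-type replicate 1 (-0.07; range over left-out libraries up to 0.21). The replicate block, by title number, gave 207 and 151. Correlations of deviations between mock and wild-type libraries were -0.133 to 0.133, and same-numbered ones did not deviate together. The title numbers differ from those of the descriptions for DEX-sprayed wild type. KNAT6 was called higher with the block (adjusted p = 0.0196) and with DESeq2 (0.0393). DESeq2 size factors gave 205 and 155, the authors' normalized values in limma 210 and 137, limma-voom 215 and 233, a minimum count of 30 gave 200 and 152, and no filter 202 and 180. Of 99 called genes followed singly, 43 kept their call in all 13 alternatives. Depth limits genes under about 1 CPM, where wild-type levels rest on few counts.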
